A study of Mus musculus with 8 samples.

Results

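Carboxylate, sulfate, peptide, bile acid, nucleoside, vitamin C and organic anion carriers were examined in the renal cortex of young and aged mice. The carriers were defined by gene symbol, and were chosen with earlier results of these data known. They comprise every gene of the count table named as a numbered Slco gene or as a member of the Slc10, Slc13, Slc15, Slc17, Slc23, Slc28, Slc29, Slc47 or Slc51 families, and they were 53 of 22609 genes. No gene of the table carries an Slc51 symbol, and the subunits of that transporter appear under the older symbols Osta and Ostb, so they lie outside the 53 and are named as such. Changes are reported for the 37 carriers with at least 10 counts in 4 or more libraries. All mice were male C57BL6 mice that received no treatment. The aged group was 4 mice labelled 30 months old (the study's methods give a higher mean age), the young group was 4 mice labelled 5 months old, and each library came from the kidney cortex of 1 mouse. RNA-Seq gave read pairs counted per gene. Levels are given as CPM, counts scaled to a common library size with TMM factors.

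These families share the work of moving organic solutes across tubule cells. In the proximal tubule, carriers of the brush border recover citrate, sulfate, small peptides, nucleosides and ascorbate from the filtrate, most of them by using the sodium or proton gradient. Carriers of the OATP (Slco), NPT (Slc17) and MATE (Slc47) families move urate, steroid conjugates, prostaglandins and drugs, and those at the brush border let the tubule secrete them into urine. In male mice the OATP of the kidney brush border encoded by Slco1a1 is known to depend on androgens.

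Each library held 14820804 to 19821429 read pairs on genes. The carriers took 0.346% to 0.554% of these in the aged mice and 0.573% to 0.608% in the young mice, so every aged mouse lay below every young mouse. This share is a sum led by abundant carriers and does not describe each of them. Slc17a3 and Slco1a1, which enter it, averaged 346 and 60.7 CPM in aged mice and 821 and 498 CPM in young mice. Of the 37 carriers reported, 12 had a positive fitted difference. The share was not compared with that of other gene sets. Aged mouse 1 lay apart from all other libraries at -71.5 on the first principal component, where the next lowest stood at -16.3. All 14 markers of the proximal tubule segments S1 and S2 were measured, and 0 of the 14 passed the test for age. Their mean log2 CPM was 9.72 in aged mouse 1 and between 10.2 and 10.5 in the other 7 mice. In whole cortex, fewer cells of a type and less RNA per cell cannot be told apart.

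Only 1 carrier changed with age with both thresholds met, an adjusted p below 0.05 and more than a 1.5-fold difference. This was Slco3a1, which fell about 2-fold in the aged mice. It is 1 of 37 carriers or 2.70%, where 2.06% of the 13944 genes tested were called, a share near that of the carriers. With the adjusted p alone, Slco3a1 and Slc10a3 passed, or 5.41% of the carriers beside 2.95% of all genes. At an unadjusted p below 0.05 there were 7 carriers, 3 higher and 4 lower, or 18.9%, beside 25.5% of all genes. The fitted log2 difference was negative in 25 of the 37 carriers (67.6%), beside 45.9% of all genes, with a median of -0.14 for the carriers and 0.03 for all genes. The aged and young mice did not overlap in 5 carriers (13.5%), beside 18.9% of all genes. These 5 were Slco3a1, Slco1a1, Slc17a3 and Slc10a3, which were lower in every aged mouse, and Slco2a1, which was higher.

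**Figure D1:**
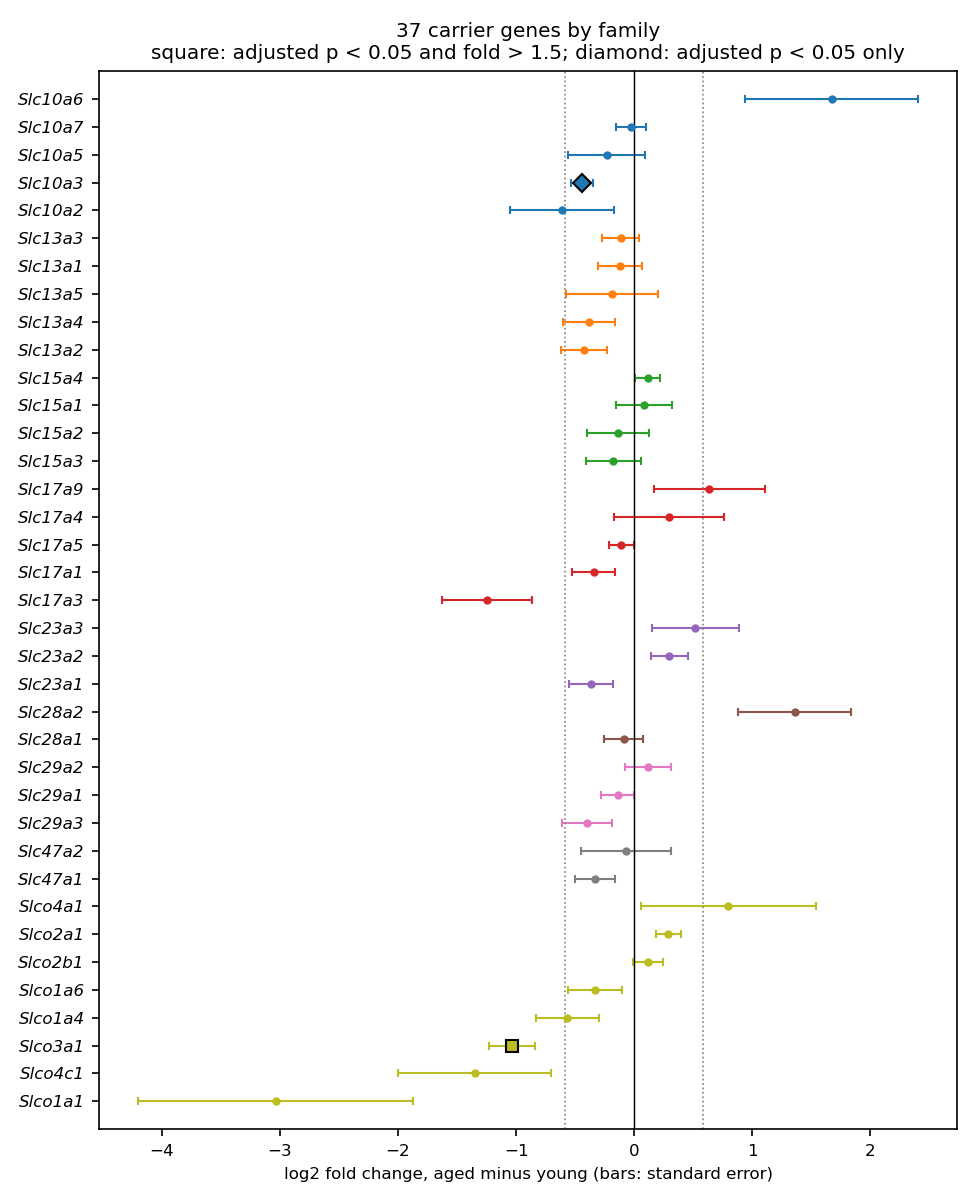
Fitted log2 fold change of each of the 37 carriers, aged minus young, with its standard error as bars and colours by family. The dotted lines mark a fold change of 1.5, and Slco3a1 at -1.03 is the square and Slc10a3 at -0.44 the diamond, while Slco1a1 at -3.04 has the longest error bar.

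The organic anion transporting polypeptides, encoded by Slco genes, take up bulky organic anions without sodium. The table lists 15 of them and 8 could be reported. Slco3a1, a widely expressed carrier of prostaglandins and thyroxine, is encoded on chromosome 7 (mm9, 81420305 to 81699666, minus strand). It stood at 154, 149, 152 and 269.97 CPM in aged mice 1 to 4 while young mice 1 to 4 had 383, 371, 342 and 386 CPM. Aged mice 1 to 3 lay within a few CPM of each other and aged mouse 4 lay between them and the young mice, without overlap. Aged mice averaged 181 ± 59.2 CPM and young mice 371 ± 20.2 CPM (SD, n = 4 each). Its log2 fold change of -1.03 (standard error 0.19) passed the quasi-likelihood test (edgeR adjusted p = 0.0378), and it ranked 171 by p among all genes tested. Without aged mouse 4 its adjusted p was 6.88e-04, and with aged mouse 2 or 3 or any 1 young mouse left out it was above 0.05, up to 0.120 without young mouse 4 (edgeR). Calls over all genes moved likewise, from 287 to 733 without aged mouse 4. They were 119 and 115 without aged mouse 2 or 3, and 8 to 35 without any 1 young mouse.

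Slco1a1 encodes an OATP of the proximal tubule brush border that carries steroid conjugates and bile acids, and it lies on chromosome 6 of mm9 (141855803 to 141895483, minus strand) in a cluster with Slco1a4, Slco1a5, Slco1a6, Slco1b2 and Slco1c1. Its neighbour Slco1a6 is an OATP enriched in kidney. For these carriers and for the Slc17a3 and Slc17a1 pair described further on, the 250 bases before the annotated start are shown, because in each pair the members stand in 1 cluster and had unlike fitted differences with age. The sequences are from RefSeq on GRCm38.p6, whose coordinates differ from those of mm9, and are written 5′ to 3′ on the strand of the gene. Capitals mark, on either strand, the TATA box core TATAA and AGAACA, which is 1 arm of the palindromic androgen response element and not the full element.
Slco1a1, chr6:141946963-141947212, minus strand: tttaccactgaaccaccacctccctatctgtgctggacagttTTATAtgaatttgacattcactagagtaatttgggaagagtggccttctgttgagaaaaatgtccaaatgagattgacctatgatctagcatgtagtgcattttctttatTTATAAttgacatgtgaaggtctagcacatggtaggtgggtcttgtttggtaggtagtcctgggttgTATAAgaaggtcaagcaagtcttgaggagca
Slco1a6, chr6:142186150-142186399, minus strand: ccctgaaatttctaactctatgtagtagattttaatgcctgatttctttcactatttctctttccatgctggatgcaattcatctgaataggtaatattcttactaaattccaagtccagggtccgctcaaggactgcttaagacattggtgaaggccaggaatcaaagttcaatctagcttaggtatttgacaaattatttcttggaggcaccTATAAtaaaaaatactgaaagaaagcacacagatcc
Slc17a3, chr13:23839184-23839433, plus strand: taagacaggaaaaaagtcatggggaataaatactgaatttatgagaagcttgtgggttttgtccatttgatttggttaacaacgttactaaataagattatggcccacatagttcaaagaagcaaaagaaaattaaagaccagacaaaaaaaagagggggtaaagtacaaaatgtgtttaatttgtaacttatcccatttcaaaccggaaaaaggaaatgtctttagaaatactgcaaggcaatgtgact
Slc17a1, chr13:23868768-23869017, plus strand: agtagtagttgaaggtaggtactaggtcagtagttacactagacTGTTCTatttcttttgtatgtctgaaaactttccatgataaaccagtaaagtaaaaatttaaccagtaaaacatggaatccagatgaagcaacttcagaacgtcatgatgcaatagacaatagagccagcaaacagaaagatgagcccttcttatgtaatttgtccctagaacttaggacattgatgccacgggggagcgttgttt

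The base before the start is numbered -1, and a position below is that of the first base of a match on the printed strand. TATAA or its complement began at -208, -98, -97 and -31 for Slco1a1 and at -36 for Slco1a6 (adjacent matches overlap), and 22.8% of all 32817 promoter windows of this length held it. AGAACA or its complement was found once, at -206 of Slc17a1, whose second annotated start is not shown, and 16.1% of all windows held it. Over the 61 windows of the 43 carriers with an entry, 14 held TATAA, and 8 or 13.1% held AGAACA. The full palindromic androgen response element and the HNF4 core CAAAGTCCA were found in 0 of the 61 windows and in 0.00914% and 0.384% of all windows. Slco3a1 and Slc51a are not among the entries.

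Slco1a1 spanned a wide range. It stood at 3.00, 8.07, 16.996 and 215 CPM in aged mice 1 to 4, from raw counts of 61, 124, 318 and 3944. The young mice had 561, 718, 257 and 457 CPM. Aged mice 1 to 3 were far below all others, while aged mouse 4 lay close under young mouse 3. Aged mice averaged 60.7 ± 103 CPM and young mice 498 ± 193 CPM (SD, n = 4 each), and the log2 fold change of -3.04 (standard error 1.16) did not pass the test (edgeR adjusted p = 0.150). It passed without aged mouse 4, with a log2 fold change of -5.74 and an adjusted p of 0.00413, and with limma-voom and sample weights (-4.12, adjusted p = 0.0262). In the other 14 of 16 alternatives Slco1a1 did not pass, with an adjusted p of up to 0.260 without young mouse 2 (edgeR).

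The other members of this subfamily had smaller fitted differences. Slco1a6 stood at 142, 257, 309 and 315 CPM in aged mice, against 295, 372, 325 and 295 CPM in the young, so that the groups overlapped (log2 fold change -0.33, standard error 0.23). Aged mice 1 and 2 lay below all young mice, and the other two within their range. Slco1a4, known from the brain endothelium and liver, was low throughout, between 1.28 and 3.39 CPM, and its log2 fold change was -0.57 (standard error 0.27, edgeR adjusted p = 0.222). Of the 100-nt windows of the Slco1a4 transcript, 1.40% had a near-identical copy on chromosome 6, while those of Slco1a1, Slco1a6 and Slco3a1 had none. Slco1a5 had 0 to 5 counts per library, the liver carrier Slco1b2 had 1 to 13 and Slco1c1, a thyroxine carrier of brain vessels, had 2 to 8.

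Slco2a1 encodes the prostaglandin transporter, which clears prostaglandins from outside the cell. It stood at 51.6, 51.5, 41.5 and 40.6 CPM in the aged mice and between 34.8 and 40.5 CPM in the young mice. Aged mouse 4, at 40.59 CPM, barely exceeded the highest young mouse, at 40.50 CPM. A log2 fold change of 0.29 (standard error 0.11, edgeR adjusted p = 0.135) did not pass. Slco2b1, a carrier of steroid sulfates, stood at 58.2 ± 9.55 CPM in the aged and 53.6 ± 4.37 CPM in the young mice (SD, n = 4 each). Slco4c1, an OATP of the basolateral proximal tubule that carries digoxin and thyroid hormone, ranged from 0.855 to 13.2 CPM in aged and from 7.67 to 26.5 CPM in young mice, with aged mouse 3 at the bottom (log2 fold change -1.35, standard error 0.64, edgeR adjusted p = 0.224). Slco4a1 was at 37.5 CPM in aged mouse 1 and between 3.69 and 12.9 CPM in the other 7 mice.

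**Figure D2:**
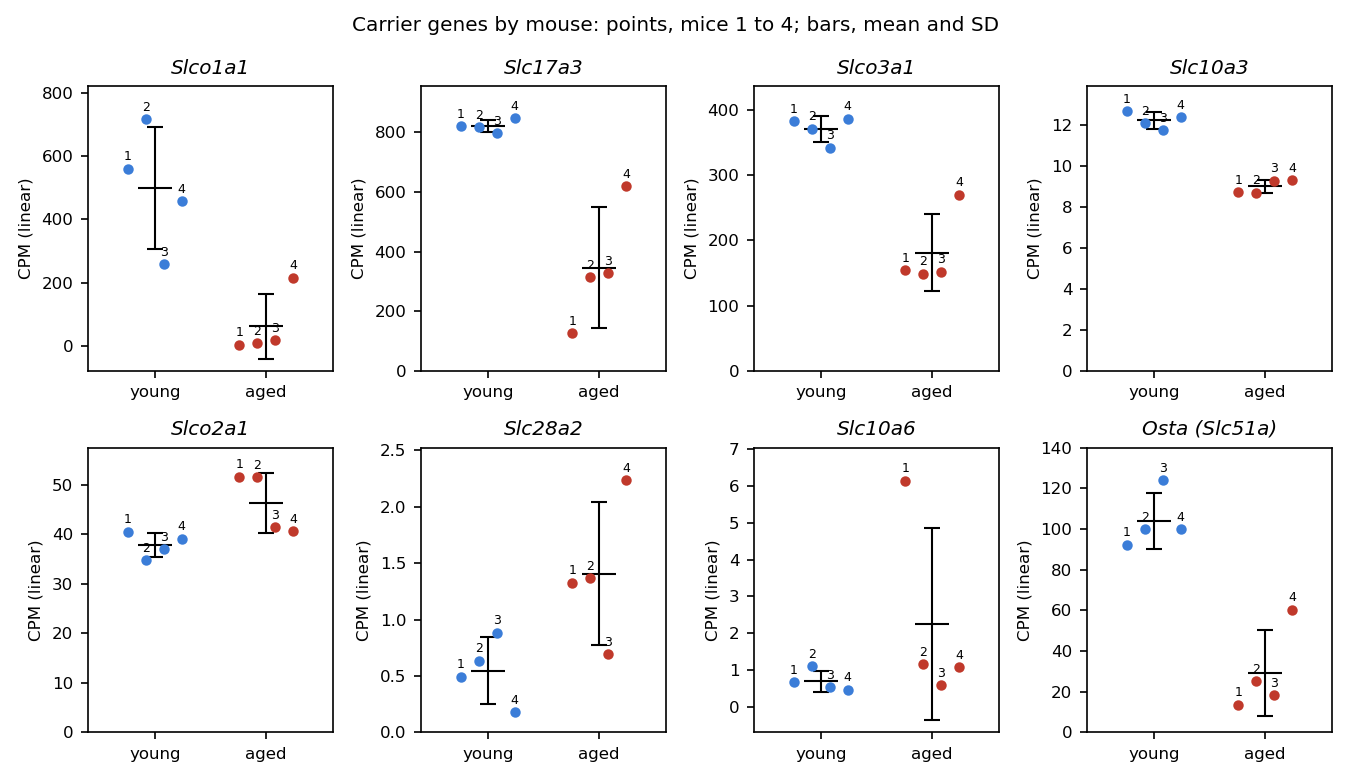
CPM on linear axes of the 7 carriers with an unadjusted p below 0.05 and of Osta, which encodes the alpha subunit of Slc51. Each point is a mouse, numbered as in its group, and bars give the mean and SD. The panels of Slco1a1, Slc17a3, Slco3a1 and Osta show aged mouse 4 as the aged mouse nearest to the young mice, at 215, 618, 269.97 and 60.3 CPM.

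The Slc17 family holds apical carriers of urate and other organic anions, the lysosomal sialic acid carrier and the vesicular carriers of glutamate and ATP. Slc17a1 (NPT1), Slc17a2, Slc17a3 (NPT4) and Slc17a4 lie side by side on chromosome 13 of mm9, Slc17a3 from 23931303 to 23952583 and Slc17a1 from 23959619 to 23987599, both on the plus strand. Slc17a3, a voltage-driven carrier of urate and drugs, stood at 126, 313, 327 and 618 CPM in the aged mice. The young mice lay close together between 797 and 848 CPM, above every aged mouse. Aged mice averaged 346 ± 203 CPM and young mice 821 ± 21.0 CPM (SD, n = 4 each), and the log2 fold change of -1.25 (standard error 0.38) did not pass the test (edgeR adjusted p = 0.0956). It passed with DESeq2 (adjusted p = 0.00935), with limma-voom (adjusted p = 0.0228), and with edgeR without aged mouse 1 (adjusted p = 0.0438) or aged mouse 4 (adjusted p = 0.0195). In the other 12 of 16 alternatives Slc17a3 did not pass, with an adjusted p of up to 0.204 without young mouse 4 (edgeR).

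Slc17a1, the neighbouring urate and organic anion carrier, stood at 391, 522, 546 and 749.7 CPM in the aged mice and between 640 and 779 CPM in the young mice. Its groups overlapped through aged mouse 4 alone, and the log2 fold change was -0.34 (standard error 0.18, edgeR adjusted p = 0.264). The ratio of Slc17a1 to Slc17a3 counts within a library, which needs no scaling, was 3.10, 1.67, 1.67 and 1.21 in the aged mice. In the young mice it was between 0.783 and 0.919. No aged mouse fell within the young range, and the aged mice were higher by 1.08 in the mean log2 ratio (two-sided exact permutation test over 70 orders, p = 0.0286, the smallest that 4 against 4 mice allow, and 0.0571 adjusted over the 4 ratios tested). Slc17a5, the lysosomal sialin, stood at 83.6 ± 11.6 CPM in the aged and 90.3 ± 3.59 CPM in the young mice (SD, n = 4 each). Slc17a4, a urate and thyroid hormone carrier, lay between 1.87 and 7.16 CPM and the vesicular ATP carrier Slc17a9 between 0.481 and 2.06 CPM, with both groups overlapping.

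**Figure D3:**
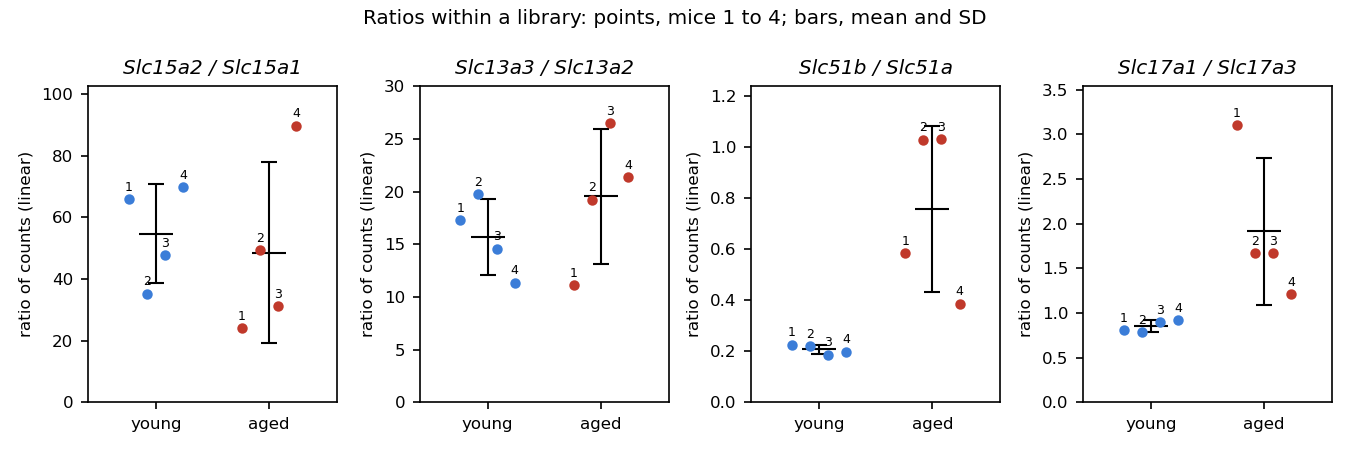
Ratio of raw counts of a pair of carriers within each library, on linear axes, with numbered points for mice and bars for mean and SD. The Slc51b to Slc51a ratio of 0.387 to 1.03 and the Slc17a1 to Slc17a3 ratio of 1.21 to 3.10 in aged mice lie above all young mice, and the other 2 ratios overlap.

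Bile acid and steroid carriers were examined next. Slc10a2 (ASBT), the apical sodium-dependent bile acid carrier, stood at 13.5, 71.7, 31.1 and 50.6 CPM in the aged mice and between 40.7 and 85.3 CPM in the young mice, so the groups overlapped (log2 fold change -0.61, standard error 0.44, edgeR adjusted p = 0.394). Slc10a3, a member of this family with no established substrate, lies on chromosome X of mm9 (71614556 to 71618688, minus strand). It stood at 8.74, 8.72, 9.30 and 9.32 CPM in aged mice, against 12.7, 12.1, 11.8 and 12.4 CPM in the young. Both groups were tight and did not overlap. Slc10a3 fell by 0.44 on the log2 scale (standard error 0.09, edgeR adjusted p = 0.0461), which is less than 1.5-fold. With upper-quartile scaling (adjusted p = 0.0539), library size alone (adjusted p = 0.0762) or no filter on low counts (adjusted p = 0.0592) it did not pass. Nor did it pass with the replicate number as a block (edgeR adjusted p = 0.110). The same held without aged mouse 2 or 3 or any 1 young mouse (edgeR adjusted p up to 0.146).

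Slc10a6, a carrier of sulfated steroids, was at 6.14 CPM in aged mouse 1 and between 0.473 and 1.17 CPM in the other 7 mice. Its log2 fold change of 1.67 (standard error 0.73, edgeR adjusted p = 0.192) was 0.40 without aged mouse 1. Slc10a5, an orphan member, stood at 97.3 ± 45.7 CPM in the aged and 114 ± 15.2 CPM in the young mice (SD, n = 4 each), with aged mouse 1 lowest. Slc10a7, an intracellular member tied to calcium handling, stood at 15.4 ± 2.69 and 15.7 ± 0.5004 CPM. Slc10a1, the liver bile acid carrier, had at least 10 counts in only 3 libraries and lies just outside the count rule, with 31 counts in aged mouse 4 and 3 to 17 in the others.

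The Slc51 transporter exports bile acids and steroids across the basolateral membrane, and it needs both of its subunits. Osta, the older symbol of the alpha subunit, stood at 13.6, 25.1, 18.2 and 60.3 CPM in aged mice, against 92.3, 99.9, 124 and 99.9 CPM in the young. No aged mouse reached the lowest young mouse. Aged mice averaged 29.3 ± 21.2 CPM and young mice 104 ± 13.8 CPM (SD, n = 4 each), and the log2 fold change of -1.83 (standard error 0.41) just missed the threshold (edgeR adjusted p = 0.0519). It passed with DESeq2 (adjusted p = 1.81e-04), with limma-voom (adjusted p = 0.0116), and with edgeR on library size alone (adjusted p = 0.0405), without aged mouse 1 (adjusted p = 0.0422) or without aged mouse 4 (adjusted p = 0.00160). Without aged mouse 2 or 3 the edgeR adjusted p was 0.0886 and 0.0899, and without any 1 young mouse it was between 0.112 and 0.132. Ostb, the beta subunit, was at 7.96 CPM in aged mouse 1 and between 18.7 and 25.8 CPM in the other 7 mice, and its log2 fold change was -0.18 (standard error 0.30). Osta lies on chromosome 16 of mm9 (32475608 to 32487965) and Ostb on chromosome 9 (65260560 to 65270580), both on the minus strand.

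The ratio of beta to alpha subunit counts (Slc51b to Slc51a, taken as Ostb to Osta) was 0.585, 1.03, 1.03 and 0.387 across the aged mice, against 0.226, 0.220, 0.187 and 0.199 across the young. Every aged mouse was above every young mouse, with a difference in mean log2 ratio of 1.75 (two-sided exact permutation test, p = 0.0286, and 0.0571 adjusted over the 4 ratios). The ratio stood apart from the young mice least in aged mouse 4.

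Sulfate and carboxylate carriers of the Slc13 family were among the most abundant carriers and none passed the test, with all 5 fitted differences between -0.43 and -0.11. Slc13a1, the apical sulfate carrier, stood at 487 ± 114 CPM in the aged and 529.8 ± 92.5 CPM in the young mice (SD, n = 4 each). Slc13a3, the high-affinity dicarboxylate carrier of the basolateral membrane, stood at 863 ± 176 CPM in the aged and 933 ± 74.8 CPM in the young mice (SD, n = 4 each), with aged mouse 1 lowest at 633 CPM. Both differences were smaller than the SD within either group. Slc13a2, the apical citrate carrier, ranged from 36.6 to 56.8 CPM in aged and from 48.1 to 81.5 CPM in young mice (log2 fold change -0.43, standard error 0.19, edgeR adjusted p = 0.208). The ratio of Slc13a3 to Slc13a2 counts was 19.6 ± 6.39 in aged and 15.7 ± 3.60 in young mice (SD, n = 4, two-sided exact permutation test, p = 0.429, and 0.514 adjusted). Slc13a4, a sulfate carrier, and Slc13a5, a citrate carrier known from liver, were low, between 1.33 and 4.58 CPM.

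Peptide carriers did not pass the test either. Slc15a2 (PEPT2), the high-affinity carrier that recovers most filtered di- and tripeptides, stood at 46.0, 73.9, 46.8 and 108 CPM in the aged mice and between 63.5 and 86.5 CPM in the young mice. The aged mice lay on both sides of the young range. Slc15a1 (PEPT1), the low-affinity carrier better known from the gut, was low at 1.53 ± 0.295 CPM in the aged and 1.44 ± 0.292 CPM in the young mice (SD, n = 4 each). The ratio of Slc15a2 to Slc15a1 counts was 48.6 ± 29.4 in aged and 54.7 ± 16.1 in young mice (SD, n = 4, two-sided exact permutation test, p = 0.514). The lysosomal peptide and histidine carriers Slc15a3 and Slc15a4 had log2 fold changes of -0.18 (standard error 0.23) and 0.11 (standard error 0.10).

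Among nucleoside carriers, the concentrative Slc28 genes use the sodium gradient and the equilibrative Slc29 genes do not. Slc28a2 (CNT2), the purine nucleoside carrier, had 27, 21, 13 and 41 counts in aged mice, against 8, 12, 13 and 3 in the young. Its level was 1.41 ± 0.632 CPM in the aged and 0.547 ± 0.295 CPM in the young mice (SD, n = 4 each), the groups overlapped through aged mouse 3, and the log2 fold change of 1.36 (standard error 0.48) did not pass the test (edgeR adjusted p = 0.127). Of the 100-nt windows of the Slc28a2 transcript, 19.2% had a near-identical copy elsewhere on chromosome 2, so its few counts are uncertain. Slc28a1 (CNT1), the pyrimidine carrier, stood at 19.4 ± 3.86 and 20.7 ± 3.00 CPM. Slc29a3, an equilibrative carrier of lysosomes, stood at 176 ± 52.0 CPM in the aged and 232 ± 27.5 CPM in the young mice (SD, n = 4 each, log2 fold change -0.40, standard error 0.21, edgeR adjusted p = 0.262). Its lowest value, 105 CPM, was that of aged mouse 1. Slc29a1 (ENT1) and Slc29a2 (ENT2) had log2 fold changes of -0.14 (standard error 0.14) and 0.11 (standard error 0.20).

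The MATE carrier Slc47a1, which exchanges organic cations for protons at the brush border and so secretes metformin and creatinine, stood at 466, 668, 592 and 838 CPM in the aged mice and between 747 and 888 CPM in the young mice. Aged mice 1 to 3 lay below all young mice and aged mouse 4 within their range (log2 fold change -0.33, standard error 0.17, edgeR adjusted p = 0.242). Slc47a2 was low, between 0.390 and 1.27 CPM. Of the vitamin C carriers, Slc23a1, the apical carrier of the proximal tubule, stood at 178 ± 41.8 CPM in the aged and 229 ± 32.3 CPM in the young mice (SD, n = 4 each), and aged mouse 3 was lowest at 117 CPM. Slc23a2, the widely expressed carrier, stood at 52.8 ± 12.4 and 43.0 ± 5.37 CPM, with aged mouse 1 highest at 71.2 CPM. Their log2 fold changes of -0.37 (standard error 0.18) and 0.30 (standard error 0.16) did not pass the test (edgeR adjusted p = 0.242 and 0.269). The orphan member Slc23a3 stood at 18.1 CPM in aged mouse 1 and between 5.24 and 10.3 CPM in the others.

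Levels of different genes were compared only as CPM per kilobase of exon. In the young mice Slc17a1 led with 295, followed by Slc13a3 with 265, Slc47a1 with 255, Slc13a1 with 212 and Slc17a3 with 188. In the aged mice Slc13a3 stood at 245, Slc17a1 at 233, Slc47a1 at 202 and Slc13a1 at 195, while Slc17a3 stood at 79.3. Neighbours in either order overlapped between mice down to Slc13a1, and in the young mice down to Slc17a3. Slco1a1, at 123 in the young mice, stood at 14.97 in the aged mice, and Slco1a6 at 97.1 and 77.3.

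The aged mice varied more than the young mice in 34 of the 37 carriers by the SD of log2 CPM (91.9%), beside 83.4% of all genes tested. Aged mouse 4 was the aged mouse nearest to the young mean in 19 of the 37 carriers (51.4%), beside 33.4% of all genes. Aged mouse 1 was nearest in 8 (21.6%), beside 14.1% of all genes. Aged mice 2 and 3 were nearest in 5 each (13.5%), beside 27.8% and 24.7% of all genes. These are descriptions of 4 mice and were not tested.

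**Figure D4:**
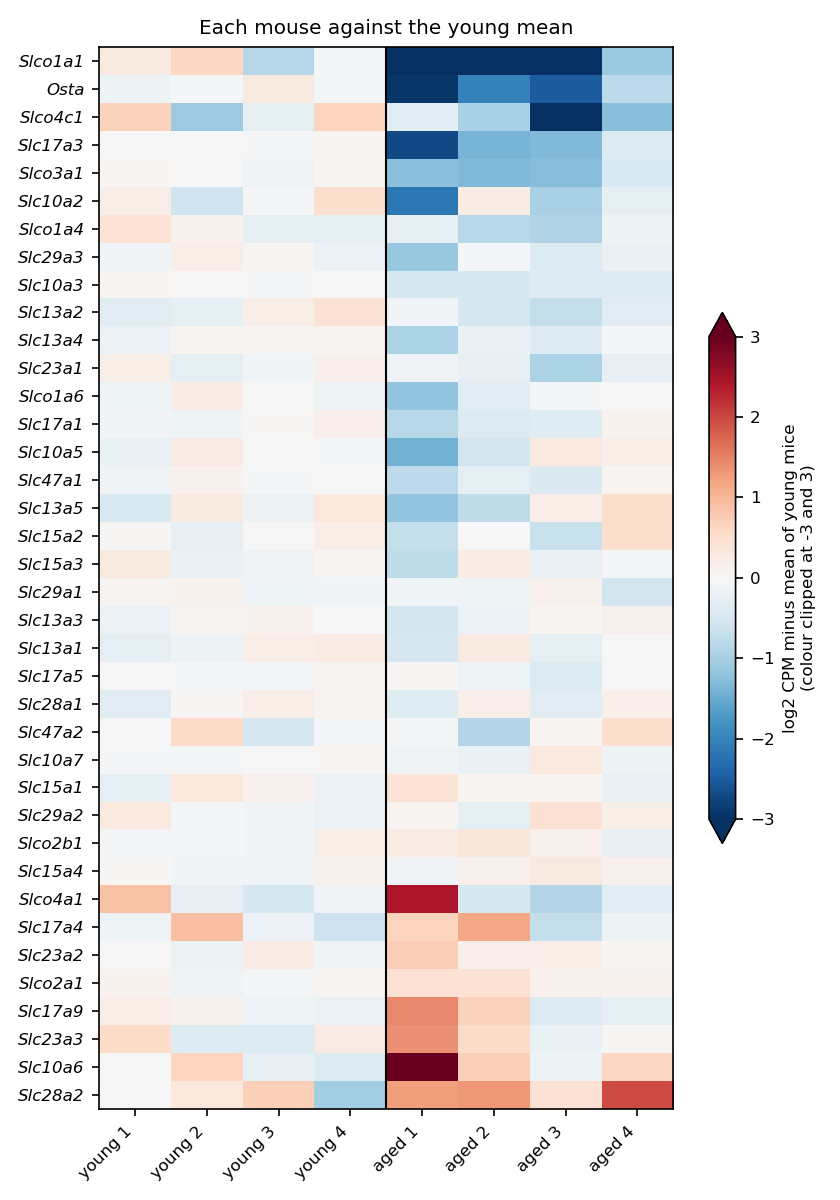
Log2 CPM of each carrier and of Osta in each mouse minus the mean of the young mice, ordered by the mean of the aged mice, with blue for lower and red for higher and colours clipped at -3 and 3. Slco1a1 and Osta head the list, with aged mouse 4 paler at -1.12 and -0.78, and Slc10a6 in aged mouse 1 reaches 3.00.

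Lists of marker and partner genes were set beside the carriers. The lists were chosen with earlier results of these data known. Of 8 genes known to respond to androgen in the male kidney, all 8 had a negative log2 fold change, beside 45.9% of all genes. Their median was -1.26, and 1 passed both thresholds. This was Acsm3, a mitochondrial fatty acid ligase, which fell from 861 ± 218 to 123 ± 129 CPM (SD, n = 4, log2 fold change -2.80, standard error 0.62, edgeR adjusted p = 0.0491). The mean log2 CPM of this list differed from the young mean by -2.54, -1.87, -1.70 and -0.35 in aged mice 1 to 4, and the young mice ranged from -0.28 to 0.29 around it. For Slco1a1 the same differences were -7.23, -5.83, -4.77 and -1.12 in aged mice 1 to 4. For Slc17a3 they were -2.70, -1.39, -1.33 and -0.41. In each case aged mouse 1 was the lowest and aged mouse 4 the nearest to the young mice. For Osta they were -2.92, -2.04, -2.50 and -0.78, and for Slco3a1 -1.26, -1.31, -1.28 and -0.45, again with aged mouse 4 the nearest.

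Of 10 genes of the proximal tubule segment S3, which share Kap with the androgen list, 9 had a negative log2 fold change and 0 passed, with a median of -1.08. Their mean differed from the young mean by -1.67, -1.10, -2.25 and -0.54 in aged mice 1 to 4. For the S1 and S2 genes the median was -0.05. The part of androgen response or of segment S3 in the lower carrier levels was not tested, and androgen levels were not analysed here.

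**Figure D5:**
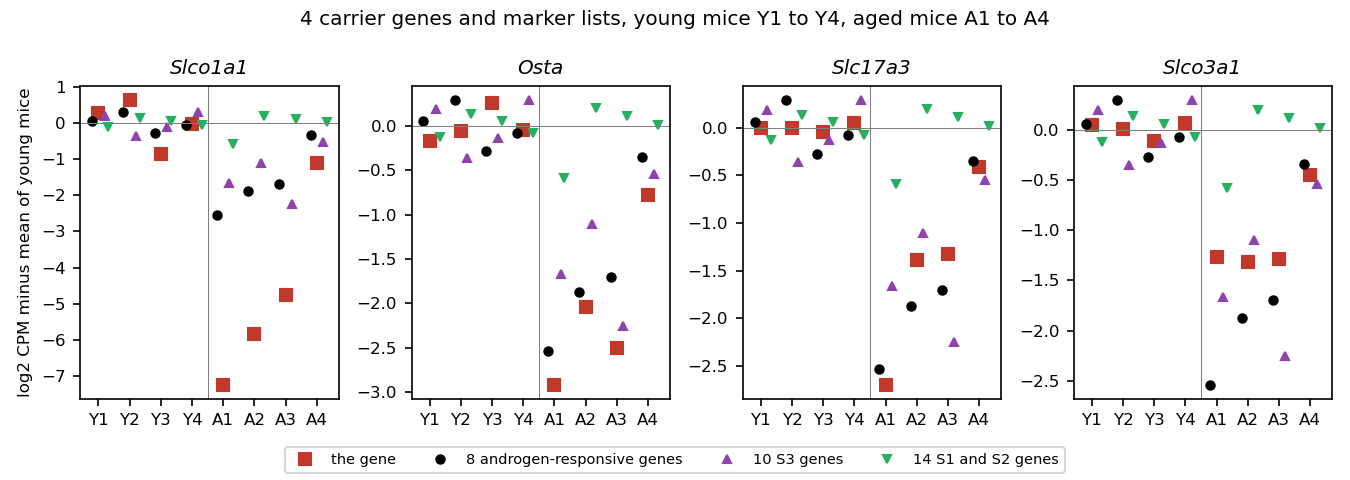
Log2 CPM minus the mean of the young mice, for Slco1a1, Osta, Slc17a3 and Slco3a1 as squares and for the mean of 3 marker lists as smaller symbols, in the 4 young and 4 aged mice on separate linear axes per panel. Aged mouse 4 is the nearest to zero of the aged mice for the 4 carriers and for the androgen and S3 lists, and the S1 and S2 list is near zero in all mice but aged mouse 1, at -0.58.

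Among markers of other cells, none of the genes of the thick limb (7), distal convoluted tubule (6), collecting duct (9), podocytes (6), endothelium (7) or fibroblasts (7) passed, with medians from -0.30 for the thick limb to 0.07 for endothelium. All 7 thick limb genes had a negative log2 fold change. In the other lists, in that order, 3, 6, 1, 1 and 4 genes did. Of 7 immune genes tested, 6 had a positive log2 fold change, with a median of 0.49 for the list, and none of the 6 passed. The seventh, the macrophage receptor gene Csf1r, passed and went the other way, from 62.0 ± 13.9 CPM in young to 31.0 ± 8.38 CPM in aged mice (SD, n = 4). Partner genes of the carriers were read from 5 further lists. None of 6 genes that set the ion gradients, 5 genes of the brush border scaffold, 9 brush border peptidases or 14 nucleoside enzymes passed, with medians of -0.20, -0.23, -0.28 and 0.02. In that order, 5 of 6, 4 of 5, 7 of 9 and 6 of 14 had a negative log2 fold change. Of 11 enzymes of citrate metabolism 1 passed, Me1, the cytosolic malic enzyme, which fell from 433 ± 26.9 to 223 ± 78.1 CPM (SD, n = 4, log2 fold change -0.96, edgeR adjusted p = 0.0495). Background for these calls is 2.06% of all genes in either direction and 0.889% for genes lower in aged mice.

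The remaining 16 carriers had too few counts for a change to be reported. Slc17a6, Slco6b1, Slco6c1 and Slco6d1 had 0 counts in every library, which at these depths allows up to 0.147 to 0.204 CPM (3 counts, counting error only). The vesicular glutamate carriers Slc17a7 and Slc17a8 had 0 to 1 and 5 to 35 counts, and Slc17a8 missed the rule with at least 10 counts in 3 libraries. Just inside the rule, with 6 libraries, were Slc10a6, Slc17a9, Slc28a2 and Slc47a2. The other carriers outside it, Slc10a4, Slc15a5, Slc17a2, Slc28a3, Slc29a4 and Slco5a1, had at most 14 counts in any library.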

How the data were processed

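Renal cortex RNA of 4 aged and 4 young mice was depleted of ribosomal RNA and made into stranded libraries. The authors aligned 100 bp read pairs to mm9 with TopHat2 and used HTSeq-count in its reverse strand mode with RefSeq genes. The deposited values are these raw counts, not normalized. CASAVA 1.8.2 is named in the submitters' processing notes, and other versions are not given in the sources used here. The table of all samples held the same counts as those of single libraries (0 values differed). Lines that name no gene were left out: pairs on no gene made up 20.0% to 29.9% of each library, pairs aligned to several places 34.3% to 39.1%. Counting by strand separates antisense genes.

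Counts were tested in R 4.3.3 with edgeR 4.0.16 (quasi-likelihood, TMM, filterByExpr with a minimum count of 10) over all 8 libraries with no covariate, and p was adjusted by Benjamini-Hochberg over 13944 genes. The thresholds were an adjusted p of 0.05 and a fold of 1.5. Standard errors are the log2 fold change divided by the root of F, and log2 CPM used a prior count of 2. The alternatives were DESeq2 1.42.0, limma-voom (limma 3.58.1) with sample weights, other scalings and filters, a replicate block and each mouse left out. The tests were also tried on simulated data, with means and dispersions taken from these counts. Exon lengths and coordinates came from GENCODE for NCBIM37, which is mm9, and promoters from RefSeq on GRCm38.p6 (matched by symbol for 43 of 53 carriers). BLAST 2.17.0 was used to find near-identical copies of each transcript in mm9 (98% identity over 100 nt).

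The carriers, lists and named genes were chosen with earlier results of these data known. Named genes are those with an unadjusted p below 0.05, the best expressed of each family and the 12 best expressed, the ratio pairs, the Slco1a and Slc17a genes and those next to the count rule. Others were named after their values were seen. Libraries labelled with the same number were not pairs by any label. The list of transcription regulators is not reported here.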

Additional observations from a re-analysis of the deposited data

Results flagged for a closer look

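In a group of 4 mice, a mouse was marked where its gap to the nearest other mouse was too large a part of the group's range in log2 CPM or log2 ratio by Dixon's test at 95%. This was the case in 2 of 82 groups, where chance gives 4.1. Aged mouse 4 was highest for Slco3a1 among the aged mice, with a gap of 0.941 of the range (8.08 against 7.27 log2 CPM for the next mouse). Young mouse 1 was lowest for Slc13a4 among the young mice, with a gap of 0.859 of the range (1.59 against 1.81 log2 CPM).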

How the results depend on the processing

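The count of carriers changed with age was 1, where 287 of all genes were called. It was 2 with DESeq2 (873 genes in all), 3 with limma-voom (483 genes in all) and 2 with a fold above 1.2. With 1 mouse left out it ranged from 0 to 3. It was 0 without aged mouse 2 or 3 (119 and 115 genes in all) and without any 1 young mouse (8 to 35 genes in all). It was 2 without aged mouse 1 (444 genes in all) and 3 without aged mouse 4 (733 genes in all). Carriers with an adjusted p below 0.05 at any fold numbered 2, but 1 with upper-quartile scaling, library size only or no filter on low counts, 3 with DESeq2, 4 with limma-voom, and 0 to 4 with 1 mouse left out. With library size only, the median over all genes stood at 0.14 in place of 0.03 (log2). The log2 difference of the Slc51b to Slc51a ratio ranged from 1.57 to 2.04 and that of the Slc17a1 to Slc17a3 ratio from 0.82 to 1.27 with 1 mouse left out, where p cannot go below 0.0571 by exact permutation.

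The numbers were not treated as pairs in the main fit because no label names them as pairs. Deviations of same-numbered libraries from their group means had correlations of 0.21, 0.04, 0.20 and -0.03 for numbers 1 to 4. Of the 4 aged mice, 3 correlated best with the young mouse of their own number. Whether same-numbered libraries share a source of variation was not tested. With the replicate number as a block, 130 genes in all and 1 carrier were called in place of 287 and 1, and 1 carrier had an adjusted p below 0.05, since that of Slc10a3 was 0.110 (edgeR). The log2 differences of the 2 ratios, 1.75 and 1.08, cannot change with the block, since each group has 4 mice. The exact sign-flip permutation gives p = 0.125 for both, its smallest.

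Of the 25 named carriers 18 kept their direction in all 16 alternatives. With library size only, Slc28a1 turned to 0.014 and Slc47a2 to 0.037 in log2 fold change. With 1 mouse left out, the log2 fold change ranged from -0.47 to 0.017 for Slc10a5, from -0.21 to 0.0097 for Slc13a3, from -0.052 to 0.21 for Slc15a1, from -0.44 to 0.013 for Slc15a2, from -0.072 to 0.72 for Slc17a4 and from -0.31 to 0.20 for Slc47a2. The cause of these moves was not tested. Depth limits Slc10a6, Slc15a1, Slc17a9, Slc28a2 and Slc47a2 most.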
